A study of Mus musculus with 18 samples.

Results

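Fibroblast growth factors (FGFs) and hepatocyte growth factor (HGF), with the receptor tyrosine kinases that bind them, were followed in satellite cells sorted from uninjured and injured muscle. The 8 genes, of 18194 gene symbols on the array, were the ligand genes Fgf2, Fgf7 and Hgf, the FGF receptor genes Fgfr1, Fgfr2, Fgfr3 and Fgfr4, and Met, which encodes the HGF receptor. Every probe set that the annotation of the array assigns to 1 of these gene symbols and to no other was taken, whatever its value, which gave 21 of 45101 probe sets.

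HGF and FGFs are stored in muscle on heparan sulfate chains and are released when muscle is damaged. HGF binding to Met is a classical signal for a quiescent satellite cell to enter the cell cycle, and FGF2 binding to FGF receptors keeps satellite cell progeny dividing. Syndecans, including the syndecan-4 that is deleted here, are heparan sulfate proteoglycans that present FGFs to their receptors.

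Satellite cells were sorted for syndecan-3, a surface proteoglycan, from tibialis anterior muscle and profiled on Affymetrix mouse genome arrays. Wild type mice were C57Bl/6 x DBA2 (B6D2F1/J), and Sdc4-/- mice carried a homozygous syndecan-4 deletion on C57Bl/6, so that genotype and strain cannot be told apart. All mice were female, and their age is 3 to 6 months in the labels and 3 months in the methods for the sorted cells. Muscle was uninjured (0 h), or was collected 12 h or 48 h after an injection of 1.2% barium chloride, which gave 6 groups of genotype and time. Each group had 3 arrays, but 1 wild type uninjured array, taken to be the one numbered 3 in the labels, was left out, so that this group holds 2 arrays and 17 of 18 arrays were compared. An array of this group was removed when the series was first analysed because it clustered with the 12 h arrays. Values are log2 GCRMA values, and a difference of 1 is a 2-fold difference. Changes were tested with limma, and a call means an adjusted p under 0.05, with the adjustment made over all 45101 probe sets. Which samples came from separate animals is not in the labels, and the p-values reflect only how far samples of a group differ. Since bulk RNA was measured, fewer cells of a type and less RNA per cell cannot be told apart.

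The arrays differed in how much of the transcriptome lay above background. Between 2832 and 3982 probe sets reached a log2 value of 5 on the wild type 12 h arrays, and between 5076 and 7864 did on the other 14. A set of 27 control probe sets for Bacillus subtilis genes, which no mouse RNA should match, had a mean of 2.48 in wild type uninjured arrays, 3.09 at 12 h and 2.76 at 48 h, and of 2.53, 2.67 and 2.59 in Sdc4-/- arrays at the same times. Values of about 2 to 3 are therefore taken as background. The satellite cell label was only partly borne out by its defining markers: Pax7 had a mean of 4.87 in wild type uninjured cells and of 2.40 to 2.60 in the other 5 groups, Myod1 stayed between 2.33 and 2.62, and Sdc3 was between 4.78 and 6.79. Of the probe sets for the deleted gene, Sdc4 1417654_at was between 2.41 and 2.60 on the 9 Sdc4-/- arrays, 5.59, 7.62 and 6.48 in wild type 48 h cells, 2.64, 2.53 and 3.64 at 12 h, and 2.36 and 3.57 in uninjured cells. The other one, Sdc4 1448793_a_at, reached 6.53 on an Sdc4-/- 48 h array, and had group means of 4.20, 4.71 and 4.92 in Sdc4-/- cells against 4.64, 4.03 and 7.66 in wild type cells. Thus only the 48 h arrays set the genotypes apart by Sdc4, and where the probes lie relative to the deletion was not analysed here.

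Most of the growth factor and receptor probe sets were near background throughout. Of the 21 probe sets, 17 stayed under a log2 value of 5 on all 17 arrays, and only Met 1434447_at had a mean of at least 4 over them. Values of 5 or more were reached by Fgfr1 1424050_s_at on 4 arrays, Fgfr1 1425911_a_at on 1, Fgfr3 1421841_at on 2 and Met 1434447_at on 8. No ligand probe set was among them, and neither was any of Fgfr2 or Fgfr4.

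**Figure D1:**
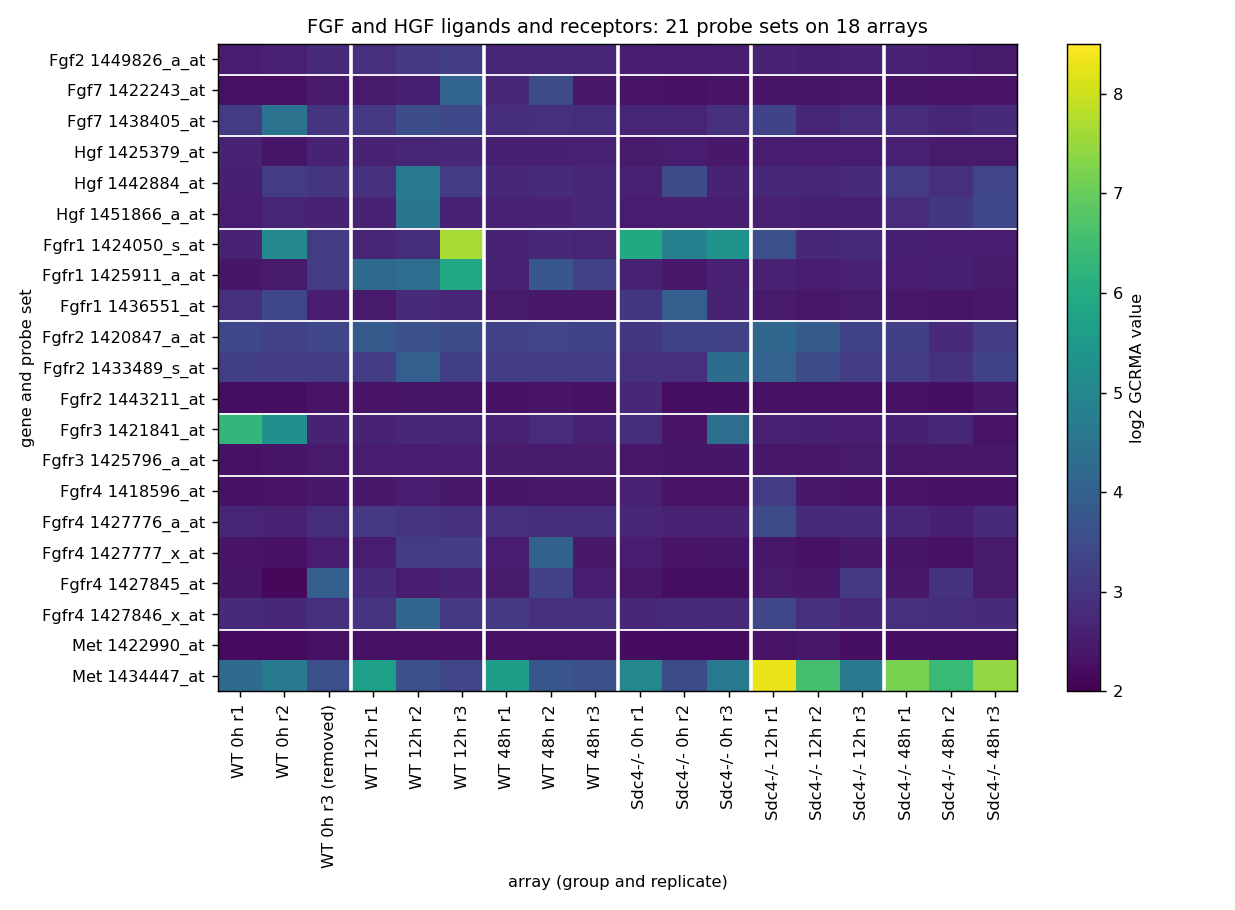
Log2 GCRMA value (colour) of the 21 probe sets (rows, by gene) on all 18 arrays (columns, by group and replicate; WT is wild type, and the removed wild type uninjured replicate 3 is marked). Most cells are dark, near background, and the brightest row is Met 1434447_at, with 8.32 on an Sdc4-/- 12 h array.

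In wild type cells at 12 h, 4 of the 21 probe sets were called, where 37.5% of all probe sets were. Higher were Fgf2, Fgfr1 1425911_a_at and Fgfr3 1425796_a_at (3 of 21, against 23.3% of all probe sets), and lower was Fgfr3 1421841_at (1 of 21, against 14.2%). The median log2 change was 0.32 over the 21 and 0.15 over all probe sets. At 48 h only Fgfr3 1421841_at was called in wild type cells, and it was lower (1 of 21, against 12.5% of all probe sets called and 7.12% called lower). In Sdc4-/- cells limma called 0 of the 21 at 12 h and 0 at 48 h, against 6.41% and 4.49% of all probe sets, while 6 and 3 had an unadjusted p under 0.05. None passed a threshold of 2-fold with an unmoderated p of 0.01 or less in those comparisons either. The called shares of the 21 did not exceed those of all probe sets in any of these 4 comparisons.

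**Figure D2:**
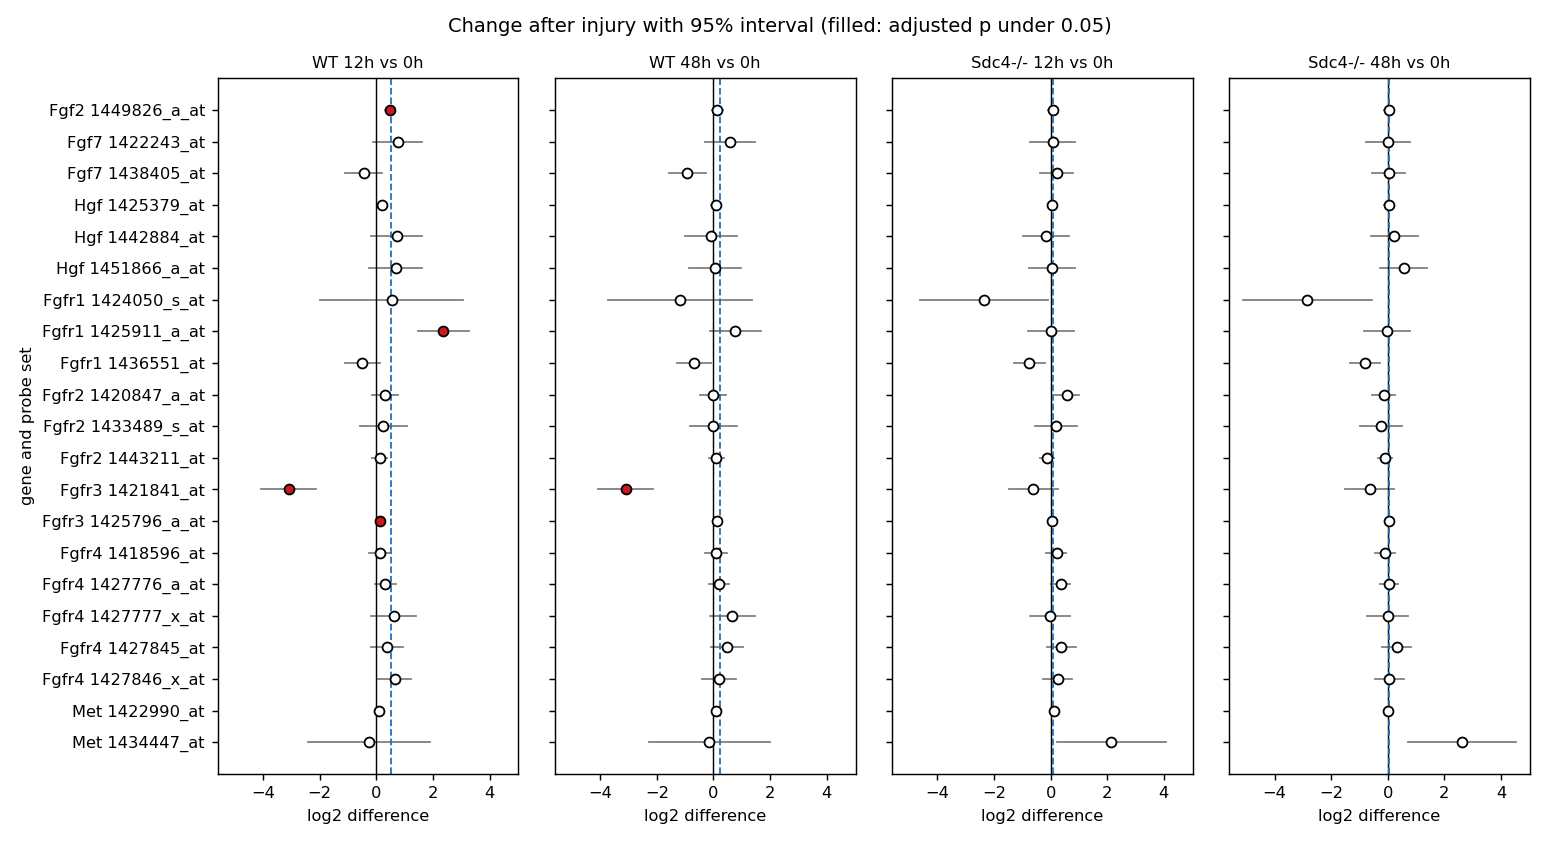
Log2 difference from uninjured cells (points) with its 95% interval (lines) for the 21 probe sets in the 4 comparisons after injury, with filled points for probe sets called at an adjusted p under 0.05. The dashed line is the median change of the 27 bacterial background probe sets, which at 12 h in wild type cells was 0.51, above the called changes of Fgf2 (0.48) and Fgfr3 1425796_a_at (0.14).

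Among the ligands, Fgf2 had a small called rise at 12 h in wild type cells. This gene encodes the FGF that drives satellite cell proliferation in culture. Its only probe set, 1449826_a_at, was 2.52 and 2.60 in wild type uninjured cells, 2.88, 3.07 and 3.17 at 12 h, and 2.67, 2.76 and 2.69 at 48 h. In Sdc4-/- cells it was 2.54, 2.51 and 2.54 uninjured, 2.62, 2.57 and 2.64 at 12 h, and 2.64, 2.55 and 2.48 at 48 h. The 3 wild type 12 h arrays lay above all others, and the other groups lay within a narrow band. At 12 h the rise was 0.48 on the log2 scale (standard error 0.08, adjusted p = 0.000944), and at that time Sdc4-/- cells were lower than wild type cells by a log2 difference of -0.43 (adjusted p = 0.00186). The bacterial background probe sets moved the same way: 25 of 27 were called higher at 12 h in wild type cells, with a median log2 change of 0.51 and a range of 0.13 to 2.48, and 18 of 27 were called lower in Sdc4-/- than in wild type cells at 12 h, with a median of -0.38. The part of background in the Fgf2 result was not tested. Both Fgf2 calls were lost in a fit of only the groups compared (adjusted p = 0.0639 for the rise and 0.0656 for the genotype difference). With the level of the hybridization controls, labelled bacterial RNAs added to every sample, as a covariate the rise was 0.21 (adjusted p = 0.749) and the genotype difference -0.28 (adjusted p = 0.377). That level was 7.86 to 8.94 on wild type uninjured arrays, 13.54 to 14.3 at 12 h and 9.71 to 12.33 on Sdc4-/- 12 h arrays. The wild type 12 h arrays do not overlap the others in it, so that the fit can hardly part it from group.

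Fgf7, which encodes a ligand made by mesenchymal cells for the epithelial form of FGFR2, was not called in any comparison. Its probe set 1438405_at was 3.12 and 4.48 in wild type uninjured cells, 3.09, 3.54 and 3.41 at 12 h, and 2.86, 2.89 and 2.86 at 48 h, and it was between 2.67 and 3.32 on the Sdc4-/- arrays. The 48 h arrays lay below both uninjured arrays, with a log2 difference of -0.93 (95% interval -1.58 to -0.28, adjusted p = 0.0629). Uninjured Sdc4-/- cells were at 2.67, 2.68 and 2.87, below both wild type arrays, with a difference of -1.06 (adjusted p = 0.0837). The wild type uninjured level was high on replicate 2 only (4.48). Replicate 1 (3.12) lay among the 12 h arrays, and the removed replicate 3 was at 2.99. Without replicate 1 the log2 change was -1.13 at 12 h and -1.61 at 48 h, and the difference between uninjured genotypes was -1.74. Each of these values rests on 1 wild type uninjured array, the highest one. The other probe set, Fgf7 1422243_at, was between 2.28 and 2.70 on all but 2 arrays, which were 1 wild type 12 h array (4.12) and 1 wild type 48 h array (3.52).

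Hgf, the gene of the Met ligand, was not called in any comparison by any of its 3 probe sets. Hgf 1425379_at was between 2.38 and 2.76 on all 17 arrays. Its change at 12 h in wild type cells was 0.20, under the median change of the bacterial background probe sets there (0.51). It was called under some alternatives, which were trend and robust moderation (0.20, adjusted p = 0.0463), scaling of the arrays to the same 75th percentile (0.41, adjusted p = 0.0034), and the fit without wild type 12 h replicate 1 (0.23, adjusted p = 0.0421). Without wild type uninjured replicate 1, which leaves 1 array in that group, the change was 0.32. Hgf 1451866_a_at was 2.83, 3.05 and 3.40 in Sdc4-/- 48 h cells and 2.52, 2.53 and 2.54 in uninjured Sdc4-/- cells, so that these arrays did not overlap. Its single highest value was 4.54, on wild type 12 h replicate 2, and Hgf 1442884_at was also highest there, at 4.63. That array had the fewest probe sets at 5 or more (2832). Without it, Hgf 1451866_a_at was called higher in Sdc4-/- cells at 48 h than in uninjured Sdc4-/- cells (log2 change 0.56, adjusted p = 0.0159) and than in wild type cells at 48 h (log2 difference 0.44, adjusted p = 0.0436).

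Among the receptors, Fgfr1 gave different patterns on its 3 probe sets. FGFR1 is a main FGF receptor of satellite cells. Fgfr1 1424050_s_at was 2.65 and 5.05 in wild type uninjured cells, 2.67, 2.85 and 7.66 at 12 h, and 2.65, 2.73 and 2.67 at 48 h. The Sdc4-/- arrays gave 5.96, 4.85 and 5.35 uninjured, 3.59, 2.74 and 2.77 at 12 h, and 2.57, 2.54 and 2.51 at 48 h. All 3 uninjured Sdc4-/- arrays were high and lay above the injured Sdc4-/- arrays, whereas in wild type cells single arrays were high in 2 groups. The log2 differences of -2.35 at 12 h (95% interval -4.63 to -0.08, adjusted p = 0.237) and -2.84 at 48 h (95% interval -5.12 to -0.57, adjusted p = 0.186) in Sdc4-/- cells did not pass the test. Wild type 12 h replicate 3, which enters through the shared error estimate, decided these calls: without it both were called, with adjusted p = 0.0153 and adjusted p = 0.00723.

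Fgfr1 1425911_a_at was 2.40 and 2.48 in wild type uninjured cells, 4.21, 4.33 and 5.89 at 12 h, and 2.60, 3.77 and 3.26 at 48 h. On the 9 Sdc4-/- arrays it was between 2.45 and 2.61. The wild type 12 h arrays lay above all others, by 2.37 on the log2 scale over uninjured cells (standard error 0.41, adjusted p = 0.000968), and at 12 h Sdc4-/- cells were lower than wild type cells by a log2 difference of -2.24 (adjusted p = 0.00141). The largest change among the 27 bacterial background probe sets in wild type cells at 12 h was 2.48, and the part of background in this result was not tested. In the alternative fit of only the groups compared, the change at 12 h had an adjusted p of 0.0741. With the hybridization controls as a covariate it was 1.73 (adjusted p = 0.572), in a fit that can hardly part their level from group, as for Fgf2.

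The third Fgfr1 probe set, 1436551_at, was 2.89 and 3.38 in wild type uninjured cells and 3.06, 3.95 and 2.61 in Sdc4-/- uninjured cells, and it was between 2.38 and 2.78 on the 12 injured arrays. The injured Sdc4-/- arrays lay below the uninjured ones, by log2 differences of -0.75 at 12 h (adjusted p = 0.106) and -0.80 at 48 h (adjusted p = 0.107), which did not pass the test. Without Sdc4-/- uninjured replicate 3, the lowest of its group (2.61), both were called, at -1.05 (adjusted p = 0.0117) and -1.10 (adjusted p = 0.0128). Leaving out the lowest uninjured array widens these falls by itself, so nothing is read from those calls. Without Sdc4-/- uninjured replicate 2 (3.95), which enters through the shared error estimate, the wild type changes at 12 h and 48 h were called, at -0.49 (adjusted p = 0.0254) and -0.68 (adjusted p = 0.0128). Over the 17 arrays Fgfr1 1424050_s_at and 1425911_a_at had a Pearson correlation of 0.37, so that a single Fgfr1 level cannot be given.

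Fgfr3 1421841_at had the largest called change of the 21 probe sets. FGFR3 is an FGF receptor best known for restraining growth plate cartilage. Its probe set was 6.31 and 5.25 in wild type uninjured cells, 2.63, 2.73 and 2.68 at 12 h, and 2.60, 2.82 and 2.60 at 48 h. On the Sdc4-/- arrays it was 2.85, 2.35 and 4.35 uninjured, 2.59, 2.58 and 2.53 at 12 h, and 2.57, 2.71 and 2.34 at 48 h. Both wild type uninjured arrays lay above all others, 1 uninjured Sdc4-/- array lay between, and every injured array was at background. Wild type cells changed by -3.09 on the log2 scale at 12 h (standard error 0.44, adjusted p = 0.000262) and -3.10 at 48 h (adjusted p = 0.000883). Uninjured Sdc4-/- cells were lower than uninjured wild type cells by a log2 difference of -2.60 (95% interval -3.56 to -1.63, adjusted p = 0.00538), the only call among the 21 in that comparison, where 3.8% of all probe sets were called and 2.55% called lower.

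The removed wild type uninjured replicate 3 was at 2.63 for Fgfr3 1421841_at, with the injured arrays. With all 18 arrays the fall at 12 h was -2.04 (adjusted p = 0.0533), that at 48 h was -2.05 (adjusted p = 0.197), and the genotype difference in uninjured cells was -1.55 (adjusted p = 0.447), so that none of these calls held. Without wild type uninjured replicate 1 the genotype difference was -2.07 (adjusted p = 0.072). The other probe set, Fgfr3 1425796_a_at, was between 2.33 and 2.51 on all arrays. Its called change of 0.14 at 12 h in wild type cells (adjusted p = 0.0412) was under the median change of the bacterial background probe sets and it was called in only 7 of the 17 fits that left out 1 array, which included none without an uninjured or 12 h wild type array.

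The arrays with Fgfr3 signal were also those with the highest levels of vascular and of fibroblast markers. The mean log2 value of 9 pericyte and smooth muscle markers was 8.34 and 7.25 on the wild type uninjured arrays, 6.93 on the uninjured Sdc4-/- array with an Fgfr3 value of 4.35, and 5.18 and 5.70 on the other uninjured Sdc4-/- arrays. On the injured arrays it was between 3.86 and 5.15, and on the removed array it was 3.42. Of these 9 markers, 6 were called lower at 12 h and 6 at 48 h in wild type cells, and 0 were called higher. Of all genes 20.8% and 9.39% were called lower at these times, and of genes with a mean of at least 4, 44.6% and 14.2%. The mean of 11 endothelial markers ranged from 5.94 to 7.48 in wild type uninjured cells, from 4.98 to 5.71 in Sdc4-/- uninjured cells and from 3.35 to 4.93 in the 4 injured groups. The mean of 10 fibro-adipogenic and fibroblast markers ranged from 7.44 to 8.23, from 4.89 to 6.84 and from 3.70 to 6.36 in the same order. The uninjured Sdc4-/- array with an Fgfr3 value of 4.35 had the 6.84, and the next highest was 6.66. The part of such cells in the Fgfr3 result was not tested.

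**Figure D3:**
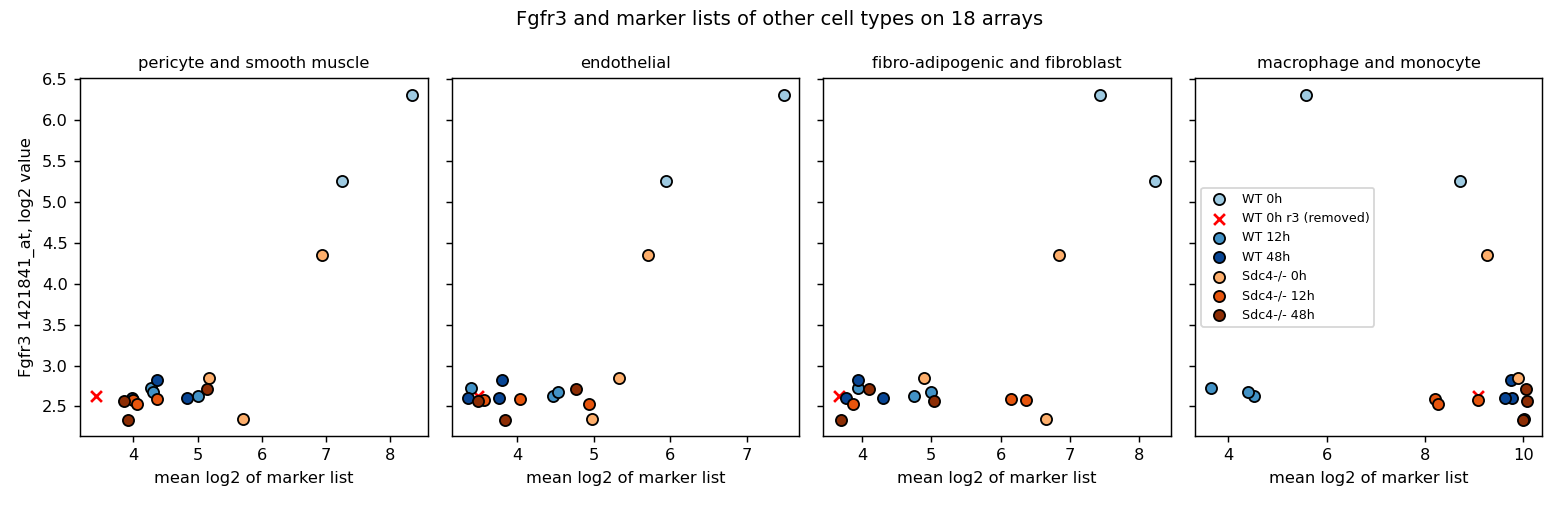
Log2 value of Fgfr3 1421841_at (vertical axis) against the mean log2 value of 4 lists of markers of other cell types (horizontal axis), with 1 point for each of the 18 arrays, coloured by group, and a red cross for the removed wild type uninjured replicate 3. The 3 arrays with an Fgfr3 value over 4 are the 3 with the highest pericyte and smooth muscle mean (6.93, 7.25 and 8.34). They also have the 3 highest means for fibro-adipogenic and fibroblast markers (6.84, 7.44 and 8.23) and endothelial markers (5.71, 5.94 and 7.48). They do not stand apart for macrophage and monocyte markers.

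Fgfr2 and Fgfr4 gave no call in any comparison. Fgfr2 encodes the receptor for FGF7 in epithelia, and Fgfr4 an FGF receptor found in myogenic cells of developing and regenerating muscle. The probe sets Fgfr2 1420847_a_at and 1433489_s_at were between 2.79 and 4.30 on all 17 arrays, and Fgfr2 1443211_at was between 2.24 and 2.75. The highest group was Sdc4-/- cells at 12 h for Fgfr2 1420847_a_at, at 4.20, 3.84 and 3.30 against 3.03, 3.32 and 3.25 uninjured (log2 difference 0.58, 95% interval 0.17 to 0.99, adjusted p = 0.103), and the arrays overlapped. Without Sdc4-/- 12 h replicate 3, the lowest of its group (3.30), this difference was called, at 0.82 (adjusted p = 0.00904). Leaving out the lowest 12 h array widens the difference by itself, so nothing is read from that call. The 5 probe sets of Fgfr4 were between 2.15 and 4.13, and their values over 4 were on single arrays, 1 at 48 h for Fgfr4 1427777_x_at (4.03) and 1 at 12 h for Fgfr4 1427846_x_at (4.13), both in wild type cells. Rises in wild type cells at 12 h were called when single arrays were left out: for Fgfr4 1427846_x_at without wild type 12 h replicate 1 (0.84, adjusted p = 0.0304) or 3 (0.82, adjusted p = 0.0426), for Fgfr4 1427777_x_at without wild type 48 h replicate 2 (0.62, adjusted p = 0.0116), and for Fgfr4 1427776_a_at without Sdc4-/- 12 h replicate 1 (0.32, adjusted p = 0.00748). Both fits for Fgfr4 1427846_x_at keep replicate 2 (4.13, against 3.01 and 3.07), the array with the fewest probe sets at 5 or more. The bacterial background probe sets changed by 0.13 to 2.48 in this comparison, with a median of 0.51. The part of background in these rises was not tested.

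Met was highest in injured Sdc4-/- cells, a difference that did not pass the test. Met 1434447_at was 4.26 and 4.67 in wild type uninjured cells, 5.67, 3.60 and 3.37 at 12 h, and 5.62, 3.75 and 3.62 at 48 h. The Sdc4-/- values were 5.0, 3.52 and 4.64 uninjured, 8.32, 6.59 and 4.70 at 12 h, and 7.20, 6.38 and 7.44 at 48 h. The 3 Sdc4-/- 48 h arrays lay above all uninjured arrays and all wild type arrays, while the 12 h arrays spread from the uninjured level to the highest value measured. In wild type cells the log2 change was -0.25 at 12 h (95% interval -2.40 to 1.89, adjusted p = 0.854) and -0.14 at 48 h (95% interval -2.28 to 2.01, adjusted p = 0.938), intervals that leave room for changes of 2-fold either way. For Sdc4-/- cells it was 2.15 at 12 h (95% interval 0.23 to 4.06, adjusted p = 0.196) and 2.62 at 48 h (95% interval 0.70 to 4.54, adjusted p = 0.141). The other probe set, Met 1422990_at, was between 2.20 and 2.41 on all arrays.

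**Figure D4:**
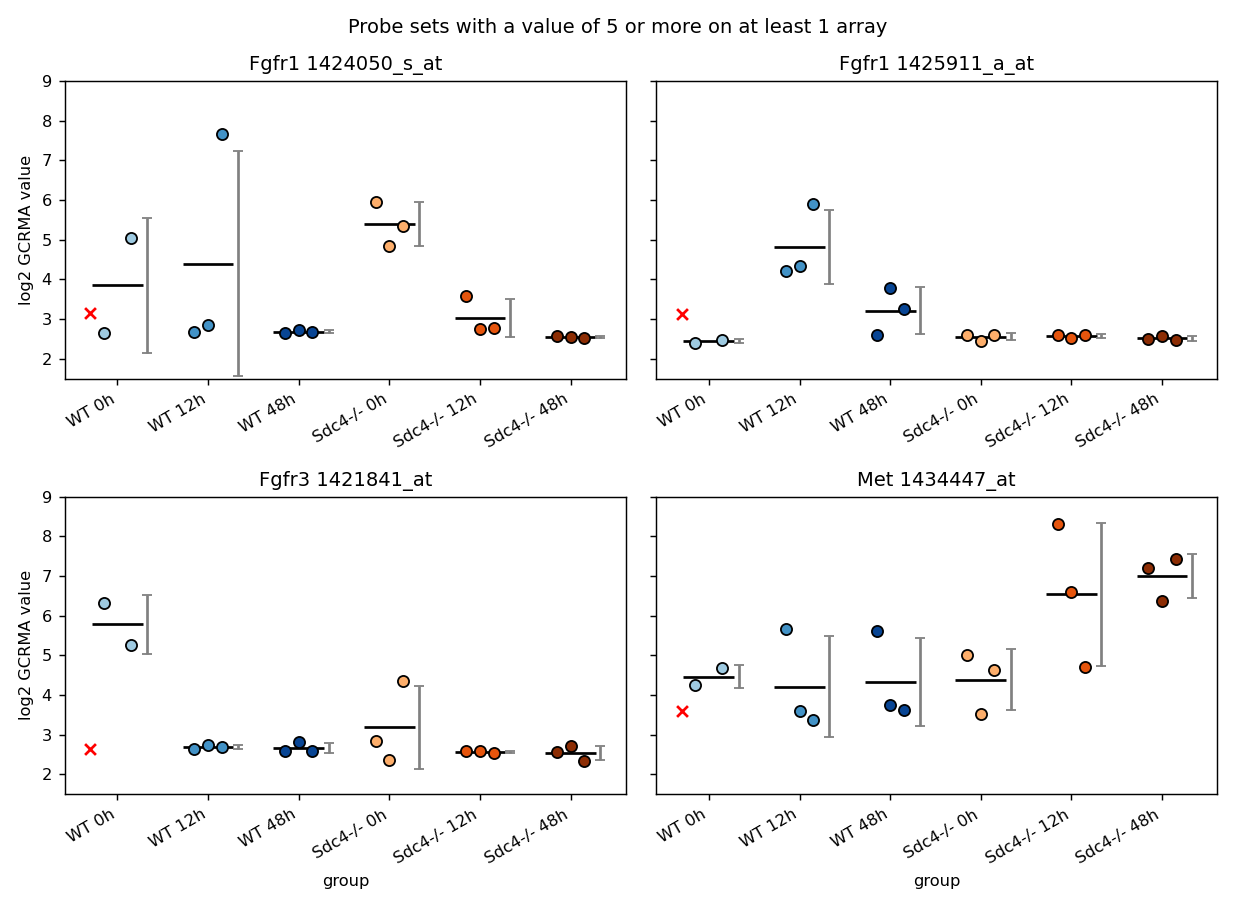
Log2 GCRMA value of the 4 probe sets that reached 5 on at least 1 of the 17 arrays, by group (WT is wild type). Points are arrays, horizontal lines group means, grey bars ± 1 SD (n = 2 in wild type uninjured cells, n = 3 in the other groups), and the red cross is the removed wild type uninjured replicate 3. Fgfr3 1421841_at is high in wild type uninjured cells (6.31 and 5.25), Fgfr1 1425911_a_at at 12 h in wild type cells, and Met 1434447_at in Sdc4-/- cells at 48 h.

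The Met means of Sdc4-/- cells minus those of wild type cells were 2.32 at 12 h (adjusted p = 0.0923) and 2.68 at 48 h (adjusted p = 0.108) on the log2 scale, and neither difference was called. The arrays overlapped at 12 h and did not at 48 h. When testing was restricted to the 9962 probe sets whose mean reached 4, of which Met 1434447_at is the only one among the 21, the difference at 48 h was called (adjusted p = 0.0436). Without wild type 12 h replicate 1 the difference at 12 h was 3.05 (adjusted p = 0.0347), and without Sdc4-/- 12 h replicate 3 it was 3.24 (adjusted p = 0.0219). These arrays are the highest wild type one (5.67) and the lowest Sdc4-/- one (4.70) at 12 h. Leaving either out widens the difference by itself, so nothing is read from those calls. The mean of 11 macrophage and monocyte markers in Sdc4-/- cells was 9.73 uninjured, 8.51 at 12 h and 10.04 at 48 h, and in wild type cells 7.15, 4.19 and 9.72. At the same times the mean of Met 1434447_at was 4.39, 6.54 and 7.01 in Sdc4-/- cells and 4.47, 4.21 and 4.33 in wild type cells. The part of such cells in the Met result was not tested.

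Between the genotypes, 2 of the 21 were called at 12 h (Fgf2 and Fgfr1 1425911_a_at, both lower in Sdc4-/- cells), where 17.4% of all probe sets were called and 11.9% called lower. At 48 h limma called 0 of the 21, where 5.07% of all probe sets were called, while 1 had an unadjusted p under 0.05 and 0 passed 2-fold with an unmoderated p of 0.01 or less. The change after injury was also compared between genotypes, as the wild type change minus the Sdc4-/- change. At 12 h, 3 of the 21 were called against 11.1% of all probe sets, 2 with a positive difference (against 6.72%) and 1 with a negative one (against 4.37%): Fgf2 (0.40, adjusted p = 0.0397), Fgfr1 1425911_a_at (2.35, adjusted p = 0.018) and Fgfr3 1421841_at (-2.48, adjusted p = 0.0193). At 48 h, Fgfr3 1421841_at was called (-2.46, adjusted p = 0.0388), 1 of 21 against 4.08% of all probe sets (2.92% with a negative difference). For Met the difference of the changes was -2.40 at 12 h (adjusted p = 0.264) and -2.76 at 48 h (adjusted p = 0.298).

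Some stretches of sequence near gene starts are shown for Met and Fgfr3, the only members with a match in the windows searched. Fgfr1 had no window at hand. RefSeq (GRCm38.p6) windows of 300 bases, 250 before to 50 after a start, were at hand for 7 of the 8 genes, 9 windows in all. They were searched on both strands for TGAGTCA or TGACTCA, the element bound by AP-1 factors such as Jun, and for CAGCTG, an E-box form bound by factors such as MyoD. The first was in 1 window, that of Met, and in 5.2% of all 32851 windows, and the second was in 1 window of Fgfr3 and in 16.3% of all. Each is printed on its gene's strand with the matched letters in capitals, the Met match starting 54 bases and the Fgfr3 match 97 bases before the start.
Met, chr6:17463893-17463919, + strand: gttgcccggcTGAGTCAcgggccgggc
Fgfr3, chr5:33721617-33721642, + strand: tgctccgcccCAGCTGggctcccacg
These are matches of letters and no binding was measured.

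The genes most like these receptors over the 17 arrays, by Pearson correlation of 18194 genes with each receptor's probe set of the highest mean, were as follows. Fgfr3 1421841_at was followed most closely by Asap2 and Gucy1a2 (r = 0.99 each) and Plekhb1 (r = 0.984), and Gucy1a2, a subunit of the nitric oxide receptor guanylate cyclase, had a mean of 6.35 in wild type uninjured cells and of 2.63 to 3.28 elsewhere. Met 1434447_at was followed by B3gnt5 (r = 0.884), Mefv (r = 0.862) and Iqsec1 (r = 0.845), and Mefv, which encodes the inflammasome sensor pyrin of myeloid cells, had a mean of 8.46 in Sdc4-/- cells at 12 h, 6.85 at 48 h and 3.77 to 4.00 elsewhere. Fgfr1 1424050_s_at was followed by Cp (r = 0.893), Limk1 (r = 0.885) and Smpdl3b (r = 0.871). These values describe arrays that share group and amplification. Fgfr3 1421841_at was at 4 or more on only 3 of the 17 arrays and Fgfr1 1424050_s_at on 5, so that few arrays largely set their correlations.

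Of 101 other genes of these pathways, 93 were measured, each by its probe set of the highest mean. Of all 18194 genes taken in this way, 19.6% were called higher and 20.8% lower in wild type cells at 12 h, with a median log2 change of 0.09, and of the 6279 with a mean of at least 4, 3.34% were called higher and 44.6% lower, with a median of -1.56. The counts of the lists are given beside these shares, and nothing particular to a list is read from them. Of 18 receptor adaptors and proximal effectors 8 were called lower and 0 higher, with a median of -1.30, and of the 13 with a mean of at least 4, 7 were called lower. They included Sos2, an exchange factor that loads Ras (-3.94, adjusted p = 0.000445), Plcg1, the phospholipase recruited by FGF receptors (-4.11, adjusted p = 0.000931), and Gab1, the docking protein of Met (-4.60, adjusted p = 0.00148). Of 9 Ras-ERK and p38 kinases, 2 were called lower: Mapk14, the p38 alpha kinase, by -4.62 (adjusted p = 8.64e-05), and Nras by -1.22 (adjusted p = 0.039). In Sdc4-/- cells at 12 h 1 adaptor was called lower and 1 higher, against 7.23% and 1.48% of all genes. Mapk14 was again lower there, by -4.19 (adjusted p = 0.000407).

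Of 13 feedback inhibitors of receptor tyrosine kinases, 6 were called lower and 1 higher at 12 h in wild type cells, with a median of -1.38, and 3 of the 6 with a mean of at least 4 were among those called lower. Of all genes 20.8% were called lower and 19.6% higher, and of genes with a mean of at least 4, 44.6% were called lower, with a median of -1.56. At 48 h 5 of the 13 were called lower and 0 higher, where 9.39% of all genes were called lower. Il17rd, which encodes the FGF antagonist Sef, changed on the log2 scale by -2.43 at 12 h (adjusted p = 0.000171) and by -2.49 at 48 h (adjusted p = 0.000516). Spry1, the Sprouty inhibitor that holds satellite cells quiescent, had -2.71 (adjusted p = 0.000272) and -2.63 (adjusted p = 0.00114). Spred2, a Sprouty-related inhibitor of Ras signalling, changed by -3.65 at 12 h (adjusted p = 0.0021) and had -2.04 at 48 h (adjusted p = 0.0851). Among Sdc4-/- arrays limma called 0 of the 13 at 12 h, where 1.48% of all genes were called higher and 7.23% lower. It called 2 higher at 48 h, against 2.65% of all genes. Spry1 had a log2 change of -0.82 (adjusted p = 0.214) at 12 h. The wild type change minus the Sdc4-/- change at 12 h was -1.89 for Spry1 (adjusted p = 0.0371) and -1.61 for Il17rd (adjusted p = 0.0343), and both were already lower in uninjured Sdc4-/- than in wild type cells, by log2 differences of -1.86 (adjusted p = 0.0191) and -1.68 (adjusted p = 0.0119). Of the 17 fits that left out 1 array, Spry1 kept its call for the difference of the 12 h changes in 8 and Il17rd in 11. Without wild type uninjured replicate 1 Il17rd was at -0.81 for the difference of changes (adjusted p = 0.0499) and -0.88 between uninjured genotypes (adjusted p = 0.0223), and Spry1 was called between uninjured genotypes neither without that array (-1.81, adjusted p = 0.12) nor without replicate 2 of that group (-1.90, adjusted p = 0.0655).

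Of 11 transcriptional targets of ERK signalling, 5 were called lower and 0 higher in wild type cells at 12 h, against 20.8% and 19.6% of all genes, with a median of -0.86. All 5 called lower were among the 7 with a mean of at least 4, where 44.6% of all such genes were called lower, with a median of -1.56. The 5 are not read as particular to this list. Those called lower included Jun (-5.12, adjusted p = 0.00215), Ier2 (-3.31, adjusted p = 0.00342) and Ccnd1, the gene of cyclin D1 (-2.38, adjusted p = 0.00217). Among Sdc4-/- arrays 2 were called higher and 1 lower at 12 h, against 1.48% and 7.23% of all genes. At 48 h 2 were called higher, against 2.65% of all genes, and Ccnd1 rose by 2.47 (adjusted p = 0.00493). Ccnd1 in wild type cells at 48 h had a log2 change of 0.62 (adjusted p = 0.416).

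The other FGF genes, the co-receptors and FGF-binding proteins, and the genes of HGF activation were mostly near background. Of 20 other genes of the FGF family, not all of which encode secreted ligands, 7 were called higher and 2 lower in wild type cells at 12 h. The shares of all genes were 19.6% and 20.8%, and the median of the 20 was 0.31. None of the 20 had a mean of at least 4, and none of the 7 rises reached 2-fold, as for Fgf16 (0.50, adjusted p = 0.000979) and Fgf12 (0.67, adjusted p = 0.00369). Fgf9 was called lower in all 4 comparisons after injury, by -1.83 (adjusted p = 0.0112) and -2.25 (adjusted p = 0.0099) at 12 h and 48 h in wild type cells and by -3.15 (adjusted p = 0.000998) and -3.28 (adjusted p = 0.00092) in Sdc4-/- cells. Of 10 co-receptors and FGF-binding proteins, Sdc2, another syndecan, was called lower at 12 h in wild type cells (-3.34, adjusted p = 0.00233) and Fgfbp3, an FGF-binding secreted protein, was called higher (0.95, adjusted p = 0.017). Of 12 genes of HGF activation and the HGF-like factor, which hold proteases that cleave pro-HGF and their regulators as well as Mst1 and its receptor Mst1r, Hpn, the protease hepsin, was called higher in the wild type 12 h arrays (1.70, adjusted p = 0.0218), and Plaur, the urokinase receptor, in the Sdc4-/- 12 h arrays (2.05, adjusted p = 0.0239). In wild type cells at 12 h the bacterial background probe sets changed by 0.13 to 2.48, with a median of 0.51. The rises of Fgf16, Fgf12, Fgfbp3 and Hpn lay within that range, and the part of background in them was not tested.

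Of the 17 pathway genes named for wild type cells at 12 h with a call, 10 were still called when the removed wild type uninjured array was included, and of the 8 called at 48 h 0 were. Over all probe sets that array took the called share from 37.5% to 19.4% at 12 h and from 12.5% to 0.929% at 48 h. Of the 4 called for the genotype difference in the 12 h change and the 2 called between uninjured genotypes, 0 were called with all 18 arrays. The share of all probe sets went from 11.1% to 1.31% and from 3.8% to 0.945% in these 2 comparisons. With the level of the hybridization controls as a covariate 0 of the 17 and 1 of the 8 were called, where 0.816% and 1.87% of all probe sets were. That level was 7.86 to 8.94 on wild type uninjured arrays, 13.54 to 14.3 at 12 h and 11.68 to 12.5 at 48 h. As it does not overlap between these groups, such a fit can hardly part it from group, and nothing about these genes is read from the lost calls.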

How the data were processed

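RNA of syndecan-3 sorted cells was amplified by T7 linear amplification, and the equivalent of 5000 cells was hybridized to each Affymetrix mouse genome array. The authors recovered intensities in the GeneChip Operating System (GCOS) and normalized them by GCRMA, for which no versions are given in the sources used here. The deposited log2 values are these GCRMA values, and they were used as deposited, with no detection calls, so that values near background have no reliable order. GCRMA models background from probe sequence and compresses low values.

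Groups came from the sample labels. One fit of 6 groups on 17 arrays was made in R 4.3.3 by lmFit and eBayes of limma 3.58.1 (11 residual degrees of freedom, prior 1.2), with Benjamini-Hochberg adjustment over 45101 probe sets, and it was tested on simulated data first. The number of arrays limits the precision. Of the probe sets 34958 have 1 symbol in the array's annotation, 932 several and 9211 none, and 76 of 82 cell type markers were matched. A listed gene is represented by its probe set with the highest mean. Named were all 21 probe sets, and from each pathway list up to 3 genes called at 12 h with the smallest adjusted p. The members and lists were chosen with earlier results of these data known. The alternatives tried were a fit of all 18 arrays, a fit of only the groups compared, trend and robust moderation, quantile normalization, a shift by the 75th percentile, a mean of at least 4, 2-fold with an unmoderated p of 0.01 or less, replicate number as a block, the mean of the hybridization controls as a covariate, and each array left out in turn.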

Additional observations from a re-analysis of the deposited data

Results flagged for a closer look

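The change after injury differed between the genotypes, by a test of the wild type change minus the Sdc4-/- change in limma, for 4 results. At 12 h the difference was 0.40 for Fgf2 1449826_a_at (adjusted p = 0.0397), 2.35 for Fgfr1 1425911_a_at (adjusted p = 0.018) and -2.48 for Fgfr3 1421841_at (adjusted p = 0.0193), and at 48 h it was -2.46 for Fgfr3 1421841_at (adjusted p = 0.0388). With all 18 arrays none of them was called: Fgf2 had 0.32 (adjusted p = 0.244), Fgfr1 1425911_a_at 2.12 (adjusted p = 0.078), and Fgfr3 1421841_at -1.43 (adjusted p = 0.484) and -1.41 (adjusted p = 0.776).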

How the results depend on the processing

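No value of the 21 probe sets changed its called direction under any alternative, but counts of calls did. Percentages in brackets are the shares of all probe sets called. In wild type cells at 12 h the count of 4 was 2 with all 18 arrays (19.4%) and 1 with only the groups compared (18%). It was 9 with a shift by the 75th percentile (8 higher and 1 lower, against 3 and 1, 53.1%) and 0 with a mean of at least 4. At 2-fold with an unmoderated p of 0.01 or less it was 2 (15.9%), and with the hybridization controls as a covariate 0 (0.816%). Hgf 1425379_at and Met 1422990_at were also called with trend and robust moderation (40.7%), and Fgfr3 1425796_a_at was not called with quantile normalization (22.8%). At 48 h the count of 1 was 0 with all 18 arrays (0.929%) and 0 with a mean of at least 4. It was 2 with trend and robust moderation (1 higher and 1 lower, 14.9%) and 10 with the shift (9 higher and 1 lower, 44.7%). In Sdc4-/- cells the count of 0 at 12 h was 1 with only the groups compared (3.91%) and 1 with trend and robust moderation (6.2%). With the shift it was 9 (all 9 higher, 46%). The count of 0 at 48 h was 1 with only the groups compared (4.21%). Between uninjured genotypes the count of 1 was 0 with all 18 arrays (0.945%), with only the groups compared (0.126%) and with a mean of at least 4. It was 2 at 2-fold with the unmoderated p (3.98%). At 12 h the count of 2 was 0 with only the groups compared (4.43%), with the covariate (1.23%) and with a mean of at least 4. It was 1 at 2-fold with the unmoderated p (6.89%). At 48 h the count of 0 was 5 with the shift (1 higher and 4 lower, 31.4%) and 1 with a mean of at least 4 (16% of the probe sets then tested). For the genotype difference in the 12 h change the count of 3 was 0 with all 18 arrays (1.31%), with a mean of at least 4 or the covariate (0.621%), and 1 with only the groups compared (7.08%). Fgf2 also lost this call with quantile normalization (7.34%), the shift (7.31%) and 2-fold with the unmoderated p (6.91%). For the genotype difference in the 48 h change the count of 1 was 0 with all 18 arrays (0.446%), only the groups compared (5.86%) and quantile normalization (2.45%). It was also 0 with the shift (5.66%), a mean of at least 4 and the covariate (0.539%). The cause of these differences was not tested, except that a mean of at least 4 leaves 1 of the 21 probe sets to test, Met 1434447_at. The shift took the median over all probe sets from 0.15 to 0.36 at 12 h and from 0.11 to 0.43 at 48 h in wild type cells, from 0.05 to 0.39 at 12 h in Sdc4-/- cells and from -0.07 to -0.29 between genotypes at 48 h.

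With each array left out in turn, counts ranged from 3 to 5 and from 1 to 2 in wild type cells at 12 h and 48 h, from 0 to 1 and from 0 to 1 in Sdc4-/- cells, and from 1 to 1, 2 to 3 and 0 to 1 between genotypes at 0 h, 12 h and 48 h. For the genotype difference they ranged from 1 to 3 at 12 h and from 0 to 1 at 48 h. Of the 17 such fits, Fgf2 kept its call for the 12 h genotype difference in 4, Fgfr1 1425911_a_at in 15 and Fgfr3 1421841_at in 16, and Fgfr3 1421841_at kept its 48 h one in 5. Without wild type uninjured replicate 1, the genotype differences of Fgf7 1438405_at were -1.34 at 12 h and -1.64 at 48 h, each resting on 1 wild type uninjured array. When a lone wild type uninjured array was left it was assumed to vary like the other groups.

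With replicate number as a block, the count for the genotype difference in the 48 h change was 0 instead of 1, the counts for wild type cells at 12 h, Sdc4-/- against wild type cells at 12 h and the 12 h genotype difference were 3, 3 and 2, and the others did not move. Met 1434447_at was then called higher in Sdc4-/- than in wild type cells at 12 h (2.32, adjusted p = 0.0457). Replicate numbers do not pair these samples: over 40 pairs of the same number the correlation of deviations ranged from -0.133 to 0.172, with a median of -0.011.

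Signal over background limits 17 of the 21 probe sets, which stayed under a log2 value of 5, and 2 arrays in the wild type uninjured group limit every comparison that uses it.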
